A study of Lachancea kluyveri with 16 samples.

Results

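The 150 genes described here stayed bright in every growth condition of a study of the budding yeast Lachancea kluyveri, in which messenger RNA was measured on 16 one-colour microarrays. For each gene, the brighter of its probes was averaged over the 4 arrays of each of the 4 groups, and the genes were ordered by the lowest of their 4 group means. The 150 highest were kept from the 4906 genes that remained after loci near the left chromosome ends and on the left arm of chromosome C had been set aside, out of 5316 genes on the array. Some of the 410 genes set aside were as bright, such as HXK2 with a lowest mean of 4.11. These genes were therefore chosen by their measured signal, so their levels are given as a description without a test, and the rule placed a floor under every group mean of every gene.

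The groups were the sef1 deletion (sef1Δ, strain SkSef1KA1) in YPGly, the wild type (WT, strain JYL1897) in YPGly, sef1Δ in YPD and WT in YPD, with 4 biological replicates each. YPD is a rich medium with glucose, and YPGly is a rich medium with glycerol as the carbon source. All cultures were started from overnight YPD cultures, set to 0.2 OD600 per ml in the new medium and sampled 5.5 h later, so that the YPGly cells had come from glucose. Each strain is a single construct, and the labels name no second sef1Δ isolate. Replicates 1 and 2 of every group were on slide 1, and replicates 3 and 4 were on slide 2. A group's position on the slide was the same on both slides, so position and group cannot be told apart.

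In growing yeast, a large part of the messenger RNA encodes the proteins of the cytosolic ribosome, the enzymes that turn glucose into ethanol, and a small number of translation factors and cell wall proteins. Glycerol cannot be fermented by most yeasts and is oxidized through the mitochondrial respiratory chain, so that glycolytic flux from glucose is not the route of growth there. Sef1 is a zinc cluster transcription factor, and deletion of its gene was the genetic change tested. Gene symbols are those of the Saccharomyces cerevisiae counterparts, and the functions given below are known from that species.

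All values are log2 signals relative to the 75th percentile of the gene probes on the same array, so that 0 is the level of that percentile and 1 unit is a doubling. The lowest group means of the 150 genes ranged from 2.48 to 7.29, which is 5.58-fold to 156-fold above the percentile. Every gene was well above background on all 16 arrays, and the lowest processed signal of any of them was 1471. A probe's brightness also depends on its sequence, so the order is one of signal and not of transcript number. SEF1 itself, measured to check the labels, was between −9.38 and −5.90 in sef1Δ against −1.69 to −1.41 in WT in YPGly, and between −9.56 and −8.09 in sef1Δ against −2.57 to −1.42 in WT in YPD (exact two-sided permutation p = 0.0286 in each medium, the smallest that 4 arrays against 4 allow).

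Of the 150 genes, 129 had a symbol and 104 fell into a role. The ribosomal protein genes were the largest group with 49 members, followed by 16 genes of glycolysis and fermentation, 6 of other central carbon metabolism, 5 each of respiration with mitochondrial carriers and of the cell wall, and 4 each of translation and of chaperones. No gene of the lists for lipid and sterol metabolism or for ribosome assembly was among them. The lists are not complete, since FAA1, a fatty acyl-CoA synthetase gene, was among the 150 without a role. CCW12, which encodes a small covalently linked cell wall protein, had the highest lowest mean. It gave 7.63, 8.08, 6.93 and 7.19 in sef1Δ in YPGly, 7.22, 7.53, 6.91 and 7.48 in WT in YPGly, 7.99, 7.68, 7.08 and 7.03 in sef1Δ in YPD, and 7.87, 7.29, 7.86 and 7.78 in WT in YPD. All of its groups overlapped, and it passed the test in no comparison. The next places were held by TEF2, which encodes translation elongation factor 1 alpha, the TDH3 copy SAKL0G17204g, which encodes glyceraldehyde-3-phosphate dehydrogenase, and HXT4, a hexose transporter gene. The brighter probe of SAKL0G17204g carries the array design's mark Xhyb, read here as possible cross-hybridization. Its signal may thus not be fully separate from that of other genes, and 5 of the 150 genes carry this mark. ENO2 (enolase), the TDH3 copy SAKL0C10186g, SAKL0G14102g, FBA1 (aldolase), PGK1 (phosphoglycerate kinase) and CDC19 (pyruvate kinase) completed the first 10. At the other end, CYC8 at 2.52, LPD1 at 2.49 and RTN1 at 2.48 were just inside, whereas SAKL0F15642g at 2.46, SAKL0C11264g at 2.46 and RPS19A at 2.45 were just outside.

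**Figure D1:**
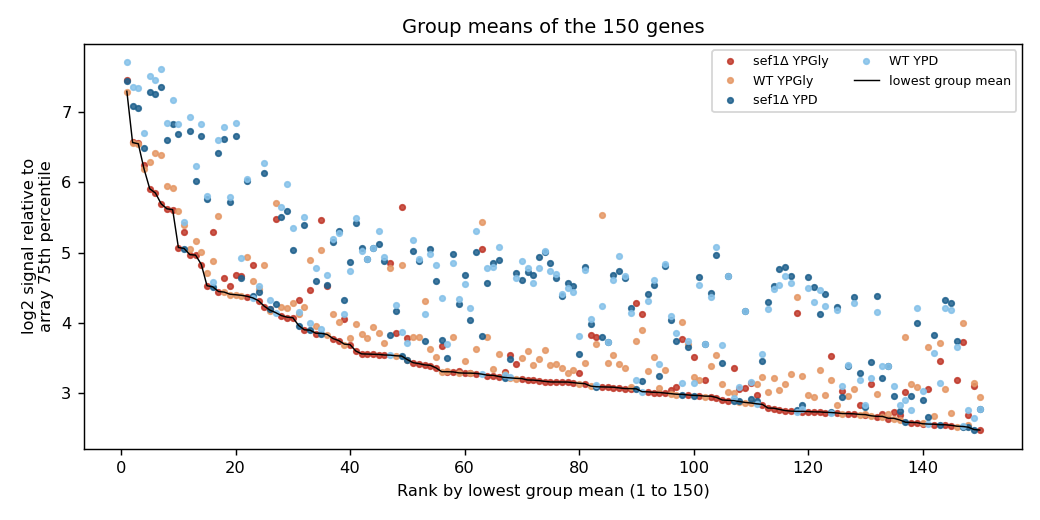
Mean log2 signal of each of the 150 genes (y axis, relative to the array's 75th percentile) against rank by lowest group mean (x axis), with 1 point for each of the 4 groups (4 arrays each) and a line through the lowest. The lowest mean was in sef1Δ in YPGly for 92 genes, and the highest was in WT in YPD for 80.

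The lowest of the 4 means was in sef1Δ in YPGly for 92 genes, in WT in YPGly for 31, in sef1Δ in YPD for 18 and in WT in YPD for 9. The highest was in sef1Δ in YPGly for 15 genes, in WT in YPGly for 16, in sef1Δ in YPD for 39 and in WT in YPD for 80. Together, the 150 genes gave 28.3% to 39.8% of the summed gene signal in YPGly against 41.9% to 50.6% in YPD on the sef1Δ arrays. On the WT arrays they gave 30.5% to 35.9% in YPGly against 44.9% to 49.5% in YPD. The YPGly and YPD ranges did not overlap in either strain. Of these genes, 98 were also among the 150 brightest of sef1Δ in YPGly alone, 108 of WT in YPGly, 115 of sef1Δ in YPD and 116 of WT in YPD.

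The arrays were uneven in ways that touch these genes. Replicate 2 of sef1Δ in YPGly stood apart, since its correlation with its own replicates over the 150 genes was 0.69 to 0.87, and all 16 glycolysis and fermentation genes were highest there, by a median of 1.39 over the mean of the other 3 arrays. Replicate 3 of the same group was lowest for all 16. In WT in YPGly, replicate 3 was lowest for 15 of the 16 genes. In WT in YPD, replicate 2 was lowest for 44 of the 49 ribosomal protein genes, and in sef1Δ in YPD replicate 4 was lowest for 48 of them.

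**Figure D2:**
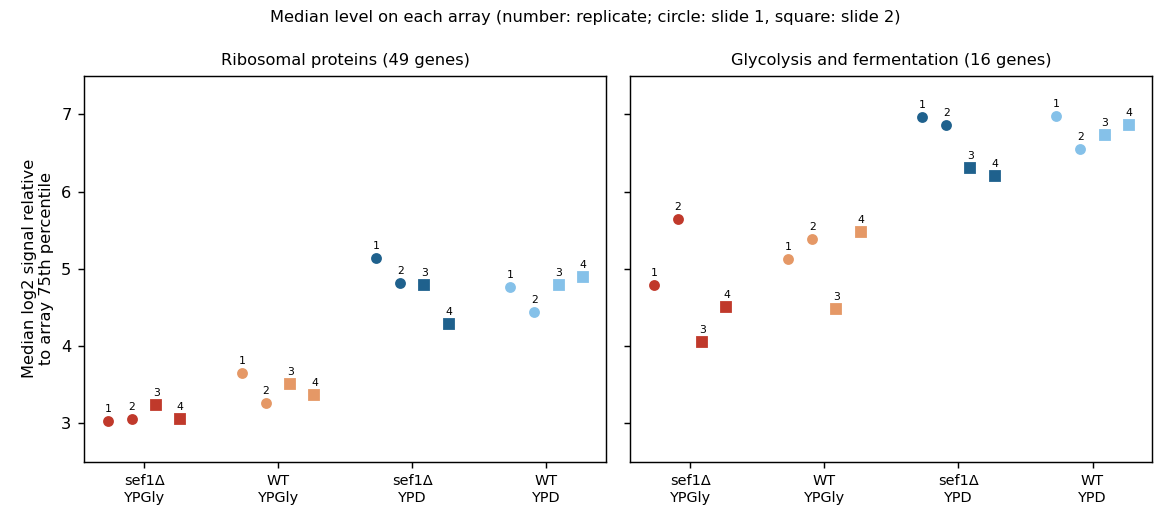
Median log2 signal of the 49 ribosomal protein genes (left) and the 16 glycolysis and fermentation genes (right) on each of the 16 arrays, with the replicate number above each point and the slide given by its shape. All YPGly arrays lie below all YPD arrays in both panels, and replicate 2 of sef1Δ in YPGly is the highest of its group for glycolysis.

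The change of medium asked how the brightest genes differ between growth on glycerol and on glucose, and it was the largest difference among them. A gene was called when limma gave an adjusted p of at most 0.05 over the 4255 genes tested and the change was at least 1.5-fold. In sef1Δ, 87 of the 150 genes were called lower in YPGly than in YPD and 12 higher, against 22.4% and 18.1% of all genes tested. In WT, 93 were called lower and 13 higher, against 24.3% and 17.5% of all genes tested. The median change was −1.12 in sef1Δ and −1.05 in WT, beside −0.11 and −0.14 over all genes tested. The YPGly and YPD arrays did not overlap for 84 lower and 12 higher genes in sef1Δ, against 23.5% and 18.4% of all genes tested, and for 93 lower and 14 higher in WT, against 26.7% and 18.5%. Since the rule used these same means, nothing is read from these shares about the choice of genes. In both strains 83 genes were called lower and 6 higher, 35 were called in neither, and 1, ADH3, was called lower in sef1Δ and higher in WT. Its change in sef1Δ was −0.71 (adjusted p = 0.0396) on the brighter probe but −0.12 on the dimmer probe, where it was not called (adjusted p = 0.692), so the opposite call rests on 1 probe. A further 3 were called lower and 6 higher in sef1Δ alone, and 10 lower and 6 higher in WT alone, but whether these differ between strains is answered only by the test of the difference given below. The balance depended on the scaling. With quantile normalization 69 genes were called lower and 25 higher in sef1Δ, and 55 lower and 22 higher in WT. With scaling to the spike-in spots the median of all genes moved to 0.18 in sef1Δ and 0.53 in WT, and the calls were 75 lower and 17 higher in sef1Δ, but 16 lower and 25 higher in WT. The median of the 150 genes was then −0.83 in sef1Δ and −0.37 in WT, still below that of all genes. Shares of all genes called under these scalings were not counted.

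Ribosomal protein genes were lower in YPGly without exception among the 49. Their changes ranged from −2.04 to −1.22 with a median of −1.66 in sef1Δ, and from −1.67 to −0.89 with a median of −1.29 in WT, and all 49 were called in each strain with YPGly and YPD arrays that did not overlap. Of the 77 ribosomal protein genes on the array, 76 were called lower in each strain. The exception, a second ASC1 copy (SAKL0F10010g), was not among the 150. RPS2, which encodes a protein of the small subunit, gave 2.85, 3.28, 2.95 and 2.66 in YPGly against 5.29, 5.26, 4.90 and 4.38 in YPD in sef1Δ (change −2.02, SE 0.23, adjusted p = 0.000101). In WT it gave 3.69, 3.38, 3.63 and 3.48 in YPGly against 5.18, 4.72, 5.16 and 5.24 in YPD (change −1.53, SE 0.16, adjusted p = 5.36e-05). Every YPGly array was thus more than 1 unit below every YPD array of its strain. ASC1 (SAKL0E03960g), whose product sits on the head of the small subunit, gave 3.28, 3.28, 3.30 and 3.27 in YPGly against 5.76, 4.96, 4.96 and 4.33 in YPD in sef1Δ, a narrow set of values beside a wide one. The largest falls in sef1Δ included RPS24A (−2.04), RPL20B (−2.00), RPS13 (−1.92) and RPS7A (−1.91), and those in WT included ASC1 (−1.67), RPL23B (−1.65) and RPS24A (−1.53). RPL3, the brightest ribosomal protein gene, fell by 1.23 in sef1Δ, and its WT arrays were 4.71, 4.85, 4.43 and 4.82 in YPGly against 5.76, 5.77, 5.94 and 5.76 in YPD. All 49 stayed below 0 under every scaling tried. With scaling to the spike-in spots their median was −1.36 in sef1Δ and −0.61 in WT, with 49 called in sef1Δ and 11 in WT. Shares of all genes called under that scaling were not counted.

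Among the 150, genes of glycolysis and fermentation were lower in YPGly with a wider spread. Of the 26 such genes on the array, 20 were called lower and 3 higher in sef1Δ, and 19 lower and 3 higher in WT. The 10 of them outside the 150 had a median of −1.24 in sef1Δ and −0.12 in WT. In sef1Δ 14 of the 16 were called lower and none higher (median −1.41), and in WT 15 were called lower and 1, ADH3, higher (median −1.23). These counts also depended on the scaling, and shares of all genes called under the other scalings were not counted. With scaling to the spike-in spots 13 were called lower in sef1Δ (median −1.12) and 4 in WT (median −0.56), and with quantile normalization 9 in sef1Δ (median −0.94) and 7 in WT (median −0.47). On the brighter probe, the alcohol dehydrogenase genes ADH1 and ADH2 had the largest falls of any of the 150 in WT. ADH1 gave 4.73, 5.38, 4.12 and 4.48 in YPGly against 6.98, 6.85, 6.32 and 6.50 in YPD in sef1Δ (change −1.99, SE 0.27, adjusted p = 0.00028). WT arrays gave 5.09, 4.25, 2.78 and 5.45 in YPGly against 6.98, 6.51, 6.76 and 7.11 in YPD (change −2.44, SE 0.48, adjusted p = 0.00208). The groups did not overlap, but the WT arrays in YPGly spread over more than 2 units. ADH2 followed it closely, with changes of −1.98 in sef1Δ and −2.35 in WT. On the dimmer probe ADH1 changed by −2.76 in sef1Δ and −2.36 in WT, and ADH2 by −1.07 in sef1Δ and −1.65 in WT. The brighter probes of both genes carry the array design's mark Xhyb, read here as possible cross-hybridization. Their signals may thus not be fully separate. Both PDC1 copies among the 150, which encode pyruvate decarboxylase, fell by 1.77 and 1.83 in sef1Δ and by 1.88 and 1.81 in WT. Another PDC1 copy (SAKL0F04334g), not among the 150, rose by 3.15 in sef1Δ and by 2.95 in WT and was called in each. CDC19 gave 4.88, 6.74, 4.25 and 4.40 in YPGly against 7.04, 7.20, 6.26 and 6.25 in YPD in sef1Δ (change −1.62, SE 0.50, adjusted p = 0.0244), where replicate 2 in YPGly exceeded the 2 lowest YPD arrays. In WT it gave 5.73, 6.13, 5.01 and 5.50 in YPGly against 6.97, 6.67, 6.84 and 6.84 in YPD (change −1.24, SE 0.22, adjusted p = 0.00127). The YPGly and YPD arrays were apart for 8 of the 16 genes in sef1Δ and for all 16 in WT. Of all genes tested, 23.5% were apart with YPGly lower and 18.4% with YPGly higher in sef1Δ. In WT these shares were 26.7% and 18.5%. Without replicate 2 of sef1Δ in YPGly, the median in sef1Δ was −1.76 and all 16 were called lower. By contrast, 11 were called without any 1 of replicates 1, 3 and 4 of that group or replicates 1 and 2 of sef1Δ in YPD. Within slide 1, 6 were called. Shares of all genes called in these fits were not counted.

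**Figure D3:**
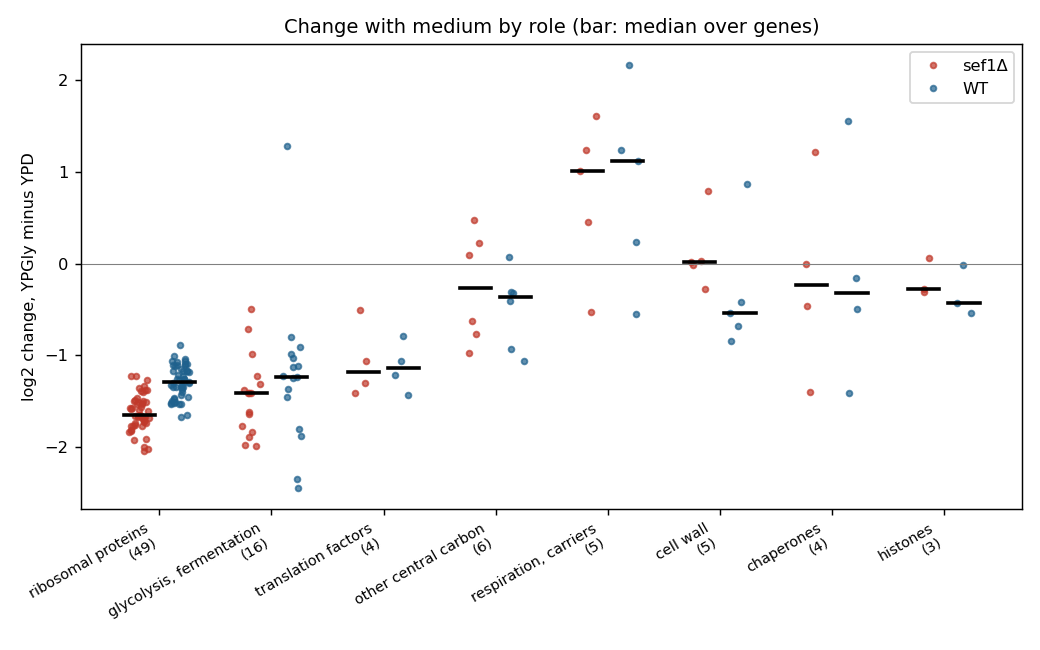
Log2 change between YPGly and YPD (y axis, YPGly minus YPD) of each gene in sef1Δ and WT, by role (x axis, number of genes in parentheses), with bars at the medians. All 49 ribosomal protein genes lie below 0 in both strains, and the 1 glycolysis and fermentation gene above 0 in WT is ADH3.

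Translation and proton pumping genes were lower as well. Among the 4 translation genes, 3 were called lower in sef1Δ and 4 in WT. TEF2 gave 6.46, 6.96, 6.43 and 6.44 in YPGly against 7.39, 7.46, 6.78 and 6.69 in YPD in sef1Δ, a change of −0.51 that did not pass (adjusted p = 0.093), and its WT change of −0.79 did (adjusted p = 0.00335). EFT2, which encodes elongation factor 2, fell by 1.06 in each strain. PMA1, the plasma membrane proton pump, gave 3.84, 4.39, 4.29 and 3.79 in YPGly against 5.73, 5.86, 5.25 and 5.53 in YPD in sef1Δ (change −1.52, SE 0.20, adjusted p = 0.000245). WT arrays gave 3.61, 4.82, 3.82 and 4.59 in YPGly against 5.90, 6.12, 6.08 and 5.82 in YPD (change −1.77, SE 0.26, adjusted p = 0.000387). SSB1, a ribosome-associated chaperone gene, fell by 1.40 in sef1Δ and by 1.41 in WT. ACT1, the actin gene that the study used as a control for quantitative PCR, fell by 0.75 in sef1Δ (adjusted p = 0.00254) and by 0.82 in WT (adjusted p = 0.00368) on this scale, and its YPGly and YPD arrays did not overlap in either strain.

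A small set rose in YPGly. HSP12, which encodes a membrane-associated stress protein, gave 5.65, 5.04, 5.49 and 5.75 in YPGly against 4.37, 4.22, 4.27 and 4.21 in YPD in sef1Δ (change 1.21, SE 0.18, adjusted p = 0.000478). In WT it gave 5.52, 5.75, 5.79 and 5.76 in YPGly against 4.36, 4.20, 3.88 and 4.14 in YPD (change 1.56, SE 0.16, adjusted p = 3.22e-05). PET9, the mitochondrial ADP/ATP carrier gene, rose by 1.61 in sef1Δ and by 1.12 in WT. APE3, a vacuolar aminopeptidase gene, rose by 1.37 in sef1Δ and by 1.63 in WT, and UBI4, the polyubiquitin gene, rose by 0.95 in sef1Δ and by 0.88 in WT. The cell wall mannoprotein gene CWP2 rose by 0.80 in sef1Δ and by 0.87 in WT. THI4, which acts in thiamine synthesis, gave 5.70, 5.88, 5.37 and 5.65 in YPGly against 4.00, 3.37, 2.85 and 3.89 in YPD in sef1Δ (change 2.13, SE 0.26, adjusted p = 0.000132). WT arrays gave 4.91, 4.77, 4.53 and 5.10 in YPGly against 4.33, 3.25, 3.45 and 4.48 in YPD (change 0.95, SE 0.28, adjusted p = 0.0177). The YPGly arrays were all above the YPD arrays in each strain.

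COX26, a gene of the cytochrome c oxidase complex, had the largest rise in WT. It gave 5.67, 5.14, 4.10 and 5.30 in YPGly against 2.69, 3.09, 4.44 and 5.04 in YPD in sef1Δ, a change of 1.24 that did not pass (SE 0.52, adjusted p = 0.0758) with overlapping arrays. In WT it gave 5.43, 5.47, 5.06 and 5.78 in YPGly against 2.41, 2.88, 3.93 and 3.86 in YPD (change 2.16, SE 0.33, adjusted p = 0.000451). In YPD, both strains were lower on slide 1 than on slide 2, and the part of the slide in this was not tested. STF2, a regulator gene of the ATP synthase, changed by 1.02 in sef1Δ (adjusted p = 0.0684) and rose by 1.24 in WT (adjusted p = 0.00408). ATP1, a subunit gene of the ATP synthase, changed by 0.45 in sef1Δ and by 0.24 in WT, neither of which passed. The TCA cycle genes SDH1 (succinate dehydrogenase) and LPD1 (dihydrolipoamide dehydrogenase) rose by 0.91 and 0.62 in sef1Δ (adjusted p = 0.00627 and 0.0137), while their WT changes of 0.57 and 0.49 did not pass (adjusted p = 0.0752 and 0.0825).

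The deletion of SEF1 was compared with WT within each medium to ask which genes depend on it. In YPD, no gene of the 150 was called in either direction, against 0.0705% of all genes lower and 0% higher. The smallest adjusted p was 0.999, 4 genes were lower and 0 higher at an unadjusted p under 0.05, and 148 of the 150 changes were under 1.5-fold. The share of all genes tested at that unadjusted cut was not counted, so nothing is read from such counts here or below. The strains did not overlap for 3 lower and 0 higher genes, against 1.32% and 0.588% of all genes tested. The median was −0.06, beside 0.01 over all genes tested. All 16 glycolysis and fermentation genes had values below 0 (median −0.21), but with scaling to the spike-in spots the median was 0.17 and with quantile normalization 0.02, and none was called. The ribosomal protein median was 0.04. Within slide 1 it was 0.36 and within slide 2 it was −0.30, so the arrays of the slides differed in direction.

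In YPGly, 2 of the 150 genes were called lower in sef1Δ and none higher, against 0.494% and 0.729% of all genes tested. At an unadjusted p under 0.05, 20 were lower and 4 higher, with the share of all genes tested not counted. The strains did not overlap for 21 lower and 4 higher genes, against 3.5% and 6.04% of all genes tested. Same-numbered replicates of the strains deviated together, although replicates 1 and 4 correlated slightly better with another number in YPGly. A fit with the replicate number as a block called 4 lower and 2 higher, against 2.12% and 3.15% of all genes tested in that fit. The first was ADH3 (SAKL0B08184g), a mitochondrial alcohol dehydrogenase gene in S. cerevisiae. It gave 2.84, 3.59, 2.60 and 3.32 in sef1Δ against 5.33, 5.15, 5.72 and 5.92 in WT in YPGly (change −2.44, SE 0.26, adjusted p = 0.00156, with the block 0.000995). In YPD it gave 4.04, 4.01, 3.37 and 3.77 in sef1Δ against 4.18, 4.23, 4.05 and 4.50 in WT (change −0.44, adjusted p = 0.999). In YPGly the highest sef1Δ array was thus more than 1 unit below the lowest WT array. The change was −2.03 within slide 1 and −2.86 within slide 2, where 2 arrays a group did not pass the test (adjusted p = 0.196 and 0.127). Another ADH3 copy (SAKL0E02838g), not among the 150, was also called lower in sef1Δ in YPGly, at −3.22. The second of the 150 to be called was SAKL0H10428g, which has no symbol here. It gave 3.05, 3.47, 3.49 and 3.59 in sef1Δ against 4.39, 4.28, 4.23 and 4.38 in WT in YPGly (change −0.92, SE 0.16, adjusted p = 0.0272, with the block 0.0124), and its groups did not overlap. This call was lost without any 1 of 6 of the 8 arrays (replicates 1, 3 and 4 of sef1Δ and 1, 2 and 3 of WT), with adjusted p between 0.0612 and 0.0995.

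The block added 4 genes, which are named because of that result and were chosen after their values were seen. STE2, the alpha-factor receptor gene, gave 3.83, 3.80, 3.93 and 3.78 in sef1Δ against 3.12, 2.85, 3.05 and 3.37 in WT in YPGly (change 0.73, adjusted p = 0.0603, with the block 0.0272). THI4 gave 5.70, 5.88, 5.37 and 5.65 in sef1Δ against 4.91, 4.77, 4.53 and 5.10 in WT (change 0.82, adjusted p = 0.0685, with the block 0.0162). Both had all sef1Δ arrays above all WT arrays. FAA1, a fatty acyl-CoA synthetase gene, gave 3.14, 2.77, 2.82 and 3.37 in sef1Δ against 3.70, 3.72, 3.87 and 3.91 in WT (change −0.78, adjusted p = 0.0764, with the block 0.0243). SUC2, the invertase gene, gave 4.04, 5.69, 4.04 and 4.00 in sef1Δ against 5.50, 5.75, 5.20 and 5.65 in WT (change −1.08, SE 0.36, adjusted p = 0.221, with the block 0.0410). The FAA1 groups did not overlap, whereas replicate 2 of sef1Δ was within the WT range for SUC2 and the other 3 arrays lay within 0.04 of each other.

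**Figure D4:**
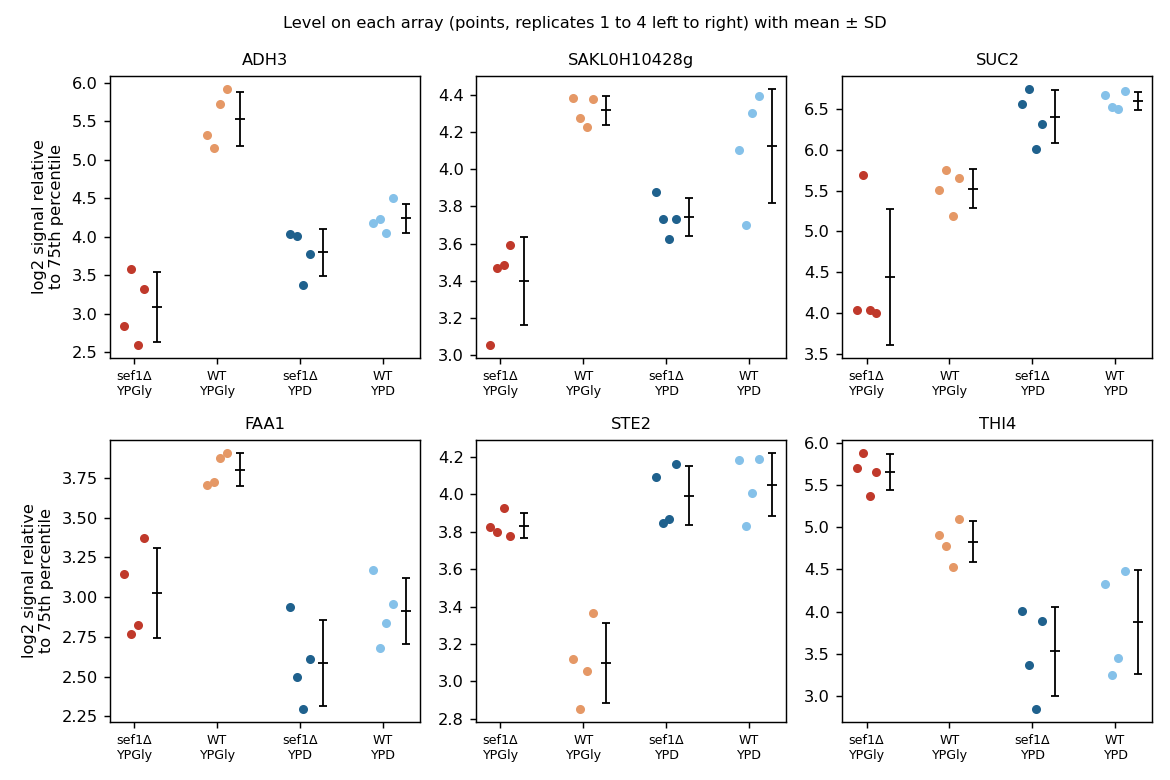
Log2 signal relative to the array's 75th percentile (y axis) of 6 genes on each array, in sef1Δ in YPGly, WT in YPGly, sef1Δ in YPD and WT in YPD (x axis), with mean ± SD over 4 arrays beside the points. In YPGly, ADH3, SAKL0H10428g and FAA1 have all sef1Δ points below the WT points, STE2 and THI4 have them above, and SUC2 has 1 sef1Δ point within the WT range.

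The ribosomal protein genes had values below 0 in sef1Δ against WT in YPGly for all 49 members, from −0.61 to −0.10 with a median of −0.30, beside 0.03 over all genes tested. None was called, and 15 had groups that did not overlap, against 3.5% of all genes tested that were lower without overlap. The median was −0.33 within slide 1 and −0.29 within slide 2. The glycolysis and fermentation genes had a median of −0.35 with 13 of 16 below 0, but this value moved with single arrays in both directions. Leaving out a sef1Δ array gave −0.74 for replicate 2 and −0.17 for replicate 3 (10 of 16 below 0), and leaving out a WT array gave −0.23 for replicate 2 and −0.54 for replicate 3. The median was −0.11 within slide 1 and −0.66 within slide 2. Without replicate 2 of sef1Δ, 6 of the 150 genes were called lower and 1 higher, against 1.13% and 1.97% of all genes tested in that fit, among them the TDH3 copy SAKL0C10186g, GPM1 (phosphoglycerate mutase), SUC2 and RPS2 as lower and STE2 as higher. Without replicate 4 of WT, 2 were called lower and 2 higher, against 0.893% and 1.39%.

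The difference between the strain effects of the 2 media was tested over all 16 arrays. ADH3 alone was called, with a difference of −2.00 (SE 0.33, adjusted p = 0.00517, with the block 0.00305), against 0.259% of all genes lower and 0.4% higher. At an unadjusted p under 0.05, 9 were lower and 7 higher, again without a count over all genes tested. The block added STE2 at 0.79 (adjusted p = 0.101, with the block 0.0361), in a fit that called 0.4% of all genes lower and 0.94% higher. The difference for ADH3 was −1.84 within slide 1 and −2.16 within slide 2, neither of which passed. The ribosomal protein median of the difference was −0.33 with all 49 genes below 0 and none called, but it was −0.69 within slide 1 and 0.02 within slide 2.

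The spread between replicates of the 150 genes, as the median SD within groups, was 0.28, beside 0.30 for the other genes tested, whereas their SD over all 16 arrays was 0.71 beside 0.44. BMH1, which encodes a 14-3-3 protein, was the steadiest, and its 16 values lay between 3.09 and 3.58. ADH1 with an SD of 1.30 and ADH2 with 1.28 varied most. The largest spread within groups was in YMR226C, HXT2 and HXT4. HXT2, a hexose transporter gene, gave 3.05, 5.23, 1.49 and 2.97 in sef1Δ in YPGly, 2.13, 3.41, 0.85 and 3.72 in WT in YPGly, 4.01, 3.61, 3.12 and 4.26 in sef1Δ in YPD, and 3.88, 3.93, 3.15 and 3.65 in WT in YPD. Its YPGly arrays spread over more than 2 units in each strain, and its YPD arrays over about 1 unit.

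A second probe was set beside the label of these genes as abundant, and for some it went against it. The probes of a gene differed by a median of 0.18 over the 149 genes with 2 probes, and 118 differed by under 0.5. For 8 genes the difference was over 1.5, which is 5.37% of them beside 2.69% of the other genes tested, and 5 of these 8 were among the 10 steadiest of the 150. The rule took the brighter probe, which favours genes with 1 very bright probe, so nothing is read from the contrast with the other genes. For SNA4 the difference was 5.95, and its dimmer probe had a lowest group mean of −2.95, below the 75th percentile, beside 3.48 for the brighter. CAT8, RSB1, CYC8 and SAKL0A04444g followed with differences of 5.62, 4.31, 3.51 and 2.80. CAT8 encodes a transcription factor of growth without glucose, and its brighter probe gave between 4.80 and 5.89 on 15 arrays (1 spot was marked as an outlier and left out). For these genes the place among the 150 rested on 1 probe. Every gene with 2 probes that was called between media, 98 of them in sef1Δ, changed in the same direction on the dimmer probe.

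**Figure D5:**
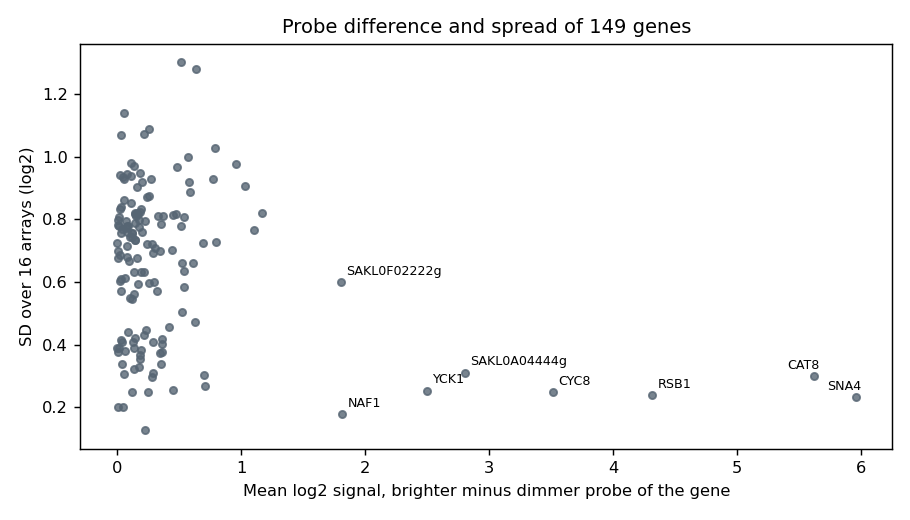
SD of the brighter probe over 16 arrays (y axis, log2) against the difference in mean log2 signal between the brighter and the dimmer probe (x axis) for the 149 genes with 2 probes, with the 8 largest differences named. SNA4 and CAT8 have differences of 5.95 and 5.62.

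The study also mapped Sef1 on the genome by chromatin immunoprecipitation, and its list of bound genes was used here for membership only. Of the 150 genes, 75 were on the list (50%), beside 581 of the 4105 other genes tested (14.2%). They included 30 of the 49 ribosomal protein genes and 14 of the 16 glycolysis and fermentation genes. In YPGly, the strain change of the 75 listed genes had a median of −0.23 and that of the 75 others −0.18, and 51 and 53 of them had values below 0. ADH3 was on the list and SAKL0H10428g was not. ADH2, SDH1, LPD1 and ECM10, which encodes a mitochondrial heat shock protein of the Hsp70 family, belonged to genes of the 50 strongest peaks, and none of these 4 was called between strains.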

How the data were processed

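Wild-type and sef1Δ cells of L. kluyveri were profiled in 2 media on 16 custom Agilent arrays. The authors read 1 dye with Feature Extraction 10.5.1.1 (per the file headers), which subtracted background. The deposited processed signals, with the median and background signals used in 1 alternative, are intensity values on a linear scale. The series matrix holds the authors' log2 values, scaled by the 75th percentile of every array, and these chose the 150 genes. The deposited spot flags are other codes and were used as given. Every array had 11156 spots, 10620 of them gene probes. The number of arrays limits the precision.

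Groups and replicate numbers came from the sample titles. The values tested were log2 processed signal minus log2 of the array's 75th percentile, without outlier spots, for the brighter probe of each gene. limma 3.58.1 in R 4.3.3 was fitted over the 4255 genes that reached a signal of 200 on all arrays of some group, with Benjamini-Hochberg adjustment. The fit was tested on simulated data. The labels call the replicates biological, without naming separate cultures, so p-values measure the spread between these samples. Same-numbered samples of the strains correlated in their deviations (0.37 to 0.71 in YPD, 0.21 to 0.70 in YPGly), so numbers were taken to pair the strains. In YPGly, replicates 1 and 4 correlated slightly better with another number (0.277 against 0.208 and 0.324 against 0.285), so the pairing is less clear there. Between media, the lowest such correlations were 0.0868 in sef1Δ and 0.000475 in WT.

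The genes and role lists were chosen with earlier results of these data known. Genes were named by rank, largest called changes, role, spread, probe disagreement and Sef1 list membership, with exceptions stated. Symbols came from the study's tables, which name 2584 of the 5316 genes. Alternatives were other scalings, background correction, probes, filters, blocks, weights, tests and left-out arrays.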

Additional observations from a re-analysis of the deposited data

Results flagged for a closer look

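The difference of the sef1Δ effect between media was past the threshold for ADH3, at −2.00 (adjusted p = 0.00517 in limma), with 4 of 4 sef1Δ arrays below all WT arrays in YPGly.

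Among the 40 genes whose values were looked at array by array, 16 groups of 4 held an array set far from the other 3 by Dixon's criterion, which chance meets in about 1 in 20 groups. Over all 150 genes it was met in 54 of 599 groups (9.02%), and 17 of these were replicate 2 of sef1Δ in YPGly and 11 replicate 2 of WT in YPD. In replicate 2 of sef1Δ in YPGly, SUC2 was at 5.69 with the other arrays between 4.00 and 4.04, TEF2 was at 6.96, RPL3 at 5.23, GPM1 at 4.89, SSB1 at 4.46 and SNA4 at 4.23, all above the other arrays, and PET9 was at 4.71, below them. In replicate 4 of that group ACT1 was high at 3.98. In replicate 2 of WT in YPD, CCW12 was at 7.29, TEF2 at 7.07, SSB1 at 5.38, RPS2 at 4.72 and BMH1 at 3.09, all below the other arrays. RPL3 was high at 5.94 in replicate 3 of WT in YPD. In WT in YPGly, HSP12 was low at 5.52 in replicate 1 and SAKL0G14102g was low at 5.77 in replicate 3.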

How the results depend on the processing

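The number of the 150 genes called in sef1Δ against WT in YPGly was 2, and it changed most with the processing. It was 1 with scaling to the spike-in spots, 1 at a threshold of at least 2-fold, 4 with all 16 arrays in the fit, 15 with array weights, 9 with the methods' t-test without correction, and 0 within slide 1 and 0 within slide 2. With the replicate block it was 6, and without each array in turn it was 1 to 7, with 7 when replicate 2 of sef1Δ was left out, 4 when this was replicate 4 of WT, and 1 for any other array. In YPD the count was 0, and it was 1 (SDH1, lower) with the methods' t-test without correction and 0 to 0 without each array in turn. For the change of medium in WT it was 106, but 41 with scaling to the spike-in spots, of which 29 were shared, and 99 to 108 without each array in turn. For the change of medium in sef1Δ it was 99, with 93 to 106 without each array, and no alternative moved it by over 1.5 times. The difference between media was called for 1 gene, for 2 with quantile normalization, for 2 with the replicate block, for 12 with array weights, for 0 within each slide, and for 1 to 2 without each array. The causes were not tested, except that the slides hold 2 arrays a group. Shares of all genes were counted only for the fit used above, the replicate block, and without replicate 2 of sef1Δ or 4 of WT. Other counts in this paragraph therefore cannot be set against all genes tested. Between media the samples shared only a number, and the block added HXT2 in WT, and FBA1, STF2 and SAKL0F13376g in sef1Δ. The choice of the 150 genes kept 146 to 150 of them without each array in turn. The largest called single-gene changes of each comparison kept their sign in every alternative. Other named changes were not checked for sign in this way. For COX26 in sef1Δ on slide 2, YPGly gave 4.10 and 5.30 against 4.44 and 5.04 in YPD, so its rise was not seen there. The balance of calls and some medians of gene groups did not keep their sign, as given beside those results. The WT medium calls and the glycolysis median of sef1Δ in YPD turned with scaling. The ribosomal protein median of the difference between media turned within slide 2. Depth is not defined for arrays, and all 150 genes were well above background.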
